A study of Mus musculus with 12 samples.

Results

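The genes described here are 30 mouse genes of fatty acid oxidation and of the acyl-CoA esters on which it runs, found by symbol among 55822 gene rows of the deposited table. They were chosen by function and all 30 were found and kept by the filter on low counts. They comprise 4 acyl-CoA synthetases, 5 genes of the carnitine shuttle, 4 acyl-CoA dehydrogenases, 6 genes of the later mitochondrial steps, 3 auxiliary enzymes for unsaturated chains, 3 electron transfer genes, 4 peroxisomal enzymes and the nuclear receptor Ppara. RNA came from primary smooth muscle cells of the mouse aorta, which give the vessel its tone, and was sequenced in 12 libraries, 4 in each of 3 groups. The group called IFNγ/LPS CM received medium conditioned for 24 hours by bone marrow-derived macrophages that had been primed overnight with interferon gamma (IFNγ, 20 ng/mL), stimulated for 4 hours with lipopolysaccharide (LPS, 100 ng/mL) and washed. The group called naive CM received medium conditioned in the same way by macrophages without IFNγ and LPS. Both media were made with 0.3% serum and 10 ng/mL M-CSF, a macrophage growth factor, and were given for 24 hours to muscle cells that had been starved of serum for 48 hours. The group called regular medium was kept in growth medium, for which the labels give neither serum nor starvation. Naive CM therefore differed from regular medium in macrophage products, M-CSF and possibly serum together, and these cannot be told apart. No strain, age or passage is given for the cells, and the titles number the libraries as biological replicates without naming animals or cultures. The p-values therefore measure the spread between these libraries, which may in part be technical.

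Long-chain fatty acids are burned in steps, each with its own enzymes. Acyl-CoA synthetases first couple the fatty acid to coenzyme A, and the carnitine shuttle then carries the acyl group into the mitochondrion, with CPT1 on the outer membrane as the controlled step. Inside, each round of β-oxidation runs through a dehydrogenase, a hydratase, a second dehydrogenase and a thiolase, and releases acetyl-CoA, while electrons of the first dehydrogenase pass through the electron transfer flavoprotein to the respiratory chain. Peroxisomes shorten very long and branched chains with enzymes of their own. PPARα, PPARδ and the ERR receptors are known to drive many of these genes in liver, heart and muscle.

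The total estimated count was 28097496 to 61493375 per library, and log2 levels correlated across genes at 0.989 to 0.993 between libraries of the same group. The table's columns name the conditioned media M0 and M1, read here as the usual names of naive and IFNγ/LPS macrophages, so every direction rests on that reading. Levels are counts per 1000000 of the TMM-scaled library total (CPM). Shares and summed levels of the oxidation genes are given as CPM per kilobase of exon. Ratios between genes are ratios of CPM without correction for gene length, so they are compared only between groups. Summed over 10 genes, smooth muscle markers stood at 231 to 251 CPM in IFNγ/LPS CM, 704 to 797 CPM in naive CM and 1105 to 1227 CPM in regular medium. Most of each sum was Cald1 and Acta2. In regular medium Myh11, Cnn1, Mylk and Des were low, at 0.206 to 0.955 CPM. Lmod1 and Myocd were at 4.15 to 7.34 CPM there, and Tagln and Smtn at 22.2 to 56.9 CPM. Of the 10 markers, 1 was higher and 7 were lower in IFNγ/LPS CM against naive CM, while 36.1% of all genes tested were higher and 35.8% lower. Macrophage markers, of which 3 of 10 had enough counts for a test, summed to 9.67 to 12.8 CPM in IFNγ/LPS CM, 1.41 to 1.54 CPM in naive CM and 1.01 to 1.062 CPM in regular medium. All 3 tested macrophage markers were higher in IFNγ/LPS CM than in naive CM by at least 2-fold, against 13.9% of all genes. Their median log2 fold change was 2.54. Cd68 was at 4.57 to 6.98 CPM in IFNγ/LPS CM and 0.857 to 1.23 CPM in naive CM. Csf1r was at 3.91 to 5.13 CPM in IFNγ/LPS CM and 0.0962 to 0.307 CPM in naive CM. Laptm5 was at 0 in IFNγ/LPS CM, and Adgre1 and Itgam were at 0 in naive CM. Adipocyte markers summed to 6.42 to 6.81 CPM in IFNγ/LPS CM, 5.93 to 7.05 CPM in naive CM and 3.66 to 5.99 CPM in regular medium, with Adipoq, Cidec and Ucp1 at 0 in both conditioned media. Adventitial fibroblast markers, several of which cultured smooth muscle cells also make, summed to 6728 to 7417 CPM in IFNγ/LPS CM, 1882 to 2040.0 CPM in naive CM and 1713 to 1993 CPM in regular medium. That sum is almost wholly Dcn and Ly6a, which rose with Pdgfra against naive CM. Of the 9 tested fibroblast markers, 5 (Dpt, Pi16, Cd34, Scara5 and Mfap5) were lower by at least 2-fold, against 15% of all genes. The median log2 fold change of the 9 was -1.56. Endothelial markers summed to at most 3.39 CPM and cardiomyocyte markers to at most 6.66 CPM in any library. The part of other cells in the results below was not tested, and in bulk RNA fewer cells of a type and less RNA per cell cannot be told apart.

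The stretches before 5 of the genes are shown as examples. Acsl1 and Acsl4 had the largest rises, and Acsl3 went the other way in the same family. Cpt1a is the controlled entry step. Etfb, an electron transfer gene, was 2.24-fold lower in IFNγ/LPS CM than in naive CM. Each stretch is the 250 bases before the RefSeq start site (GRCm38.p6, the mm10 build), 5′ to 3′ on the gene's strand. Capitals mark a GC box (GGGCGG) or a CCAAT box (CCAAT) on either strand.
Acsl1, chr8:46470787-46471036, plus strand: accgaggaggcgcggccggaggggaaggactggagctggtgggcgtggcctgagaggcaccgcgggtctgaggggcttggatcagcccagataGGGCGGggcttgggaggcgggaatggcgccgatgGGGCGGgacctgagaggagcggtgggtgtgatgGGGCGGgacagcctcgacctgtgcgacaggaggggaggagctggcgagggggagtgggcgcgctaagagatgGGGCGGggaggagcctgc
Acsl4, chrX:142390536-142390785, minus strand: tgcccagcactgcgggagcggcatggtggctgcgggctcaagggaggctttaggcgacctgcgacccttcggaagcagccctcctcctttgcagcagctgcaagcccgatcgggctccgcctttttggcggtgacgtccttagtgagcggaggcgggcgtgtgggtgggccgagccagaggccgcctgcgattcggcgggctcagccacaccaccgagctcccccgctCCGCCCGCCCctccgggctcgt
Acsl3, chr1:78657575-78657824, plus strand: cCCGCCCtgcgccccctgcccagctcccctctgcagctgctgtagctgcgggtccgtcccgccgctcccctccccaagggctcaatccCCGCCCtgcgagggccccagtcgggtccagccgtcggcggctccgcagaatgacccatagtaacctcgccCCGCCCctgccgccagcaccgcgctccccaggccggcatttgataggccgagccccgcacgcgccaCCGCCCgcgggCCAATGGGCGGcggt
Cpt1a, chr19:3323051-3323300, plus strand: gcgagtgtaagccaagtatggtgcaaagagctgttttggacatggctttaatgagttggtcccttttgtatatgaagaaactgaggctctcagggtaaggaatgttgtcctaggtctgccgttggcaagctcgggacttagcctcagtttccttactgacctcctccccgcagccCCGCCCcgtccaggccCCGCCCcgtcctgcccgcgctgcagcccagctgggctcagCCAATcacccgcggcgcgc
Etfb, chr7:43443822-43444071, plus strand: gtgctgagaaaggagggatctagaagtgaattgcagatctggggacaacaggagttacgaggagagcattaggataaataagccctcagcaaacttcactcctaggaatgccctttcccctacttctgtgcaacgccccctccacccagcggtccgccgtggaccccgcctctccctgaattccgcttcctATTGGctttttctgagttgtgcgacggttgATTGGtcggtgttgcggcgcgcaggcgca

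Windows of 300 bases, reaching from 250 before to 50 after the start, were at hand for 25 of the 30 genes (26 windows, since Acsl1 has a second start). The GC box, a word read by Sp1 family factors, was in 20 of the 26 windows (76.9%), against 35.7% of all 32851 RefSeq windows. CCAAT was in 12 windows (46.2%), against 37.4% of all windows. Of the words tied to fatty acid oxidation, only exact copies were searched. The PPAR and RXR repeat DR1, a repeat of AGGTCA with 1 base between, was in 0 of the 26 windows and 0.0396% of all windows. The extended ERR word TCAAGGTCA was in 0 of the 26 and 0.423% of all. Words so rare in all windows would hardly be met in 26. Their absence therefore says nothing of looser copies or of sites outside the windows. The interferon-stimulated core, a repeat of GAAA with 2 bases between, was in 0 of the 26 windows and 3.44% of all. The gamma-activated word TTCNNNGAA was in 3 windows (11.5%, those of Cpt2, Hadha and Hadhb) against 8.30% of all. Hadha and Hadhb are read away from each other from RefSeq starts 273 bases apart. They share the same copy, TTCTCTGAA, at chr5:30155128-30155136 on the plus strand. In the GENCODE annotation Hadha begins at 30155162 and Hadhb at 30155248, so this copy lies within the annotated Hadha gene. Of the 250 bases before the RefSeq start, 182 for Hadha and 160 for Hadhb are annotated Hadha exon. Both strands were searched, GC and CCAAT boxes may lie side by side as in Acsl3, and the GC boxes nearest the Acsl4 start overlap. Genes with and without GC boxes both rose and fell. Acsl1 and Acsl3, which moved in opposite directions, both hold them, though the window of the second Acsl1 start holds none. The part of these boxes in the changes was not tested.

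Set against naive CM, IFNγ/LPS CM shows what the stimulated macrophages' medium does beyond that of unstimulated ones. Of the 9 genes of activation and the carnitine shuttle, 6 were called higher and 3 lower. Of the 6 genes of the later mitochondrial steps, 1 was higher and 5 lower. The values of Cpt1c, Cpt2 and Echs1, among those called higher, turned negative with library totals, where Cpt2 and Echs1 were called lower. Of the 30 genes, 8 were higher and 18 lower in IFNγ/LPS CM at an adjusted p of 0.05 (edgeR quasi-likelihood test, Benjamini-Hochberg adjustment over 16140 genes), and 4 did not pass. Of all genes tested, 71.9% passed, 36.1% higher and 35.8% lower, so the 26.7% of these genes called higher was below that background and the 60% called lower above it. The median log2 fold change of the 30 genes was -0.19, against 0.004 over all genes. Scaled by library totals in place of TMM, the split was 5 higher and 23 lower, against 20.3% and 58.1% of all genes, with medians of -0.58 for the 30 genes and -0.38 for all genes, so changes smaller than this shift depend on the scaling. A change of at least 2-fold was seen in 3 genes upward and 3 downward, against 13.9% and 15% of all genes. Groups did not overlap for 7 of the higher and 17 of the lower genes, against 34.9% and 34.6% of all genes.

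**Figure D1:**
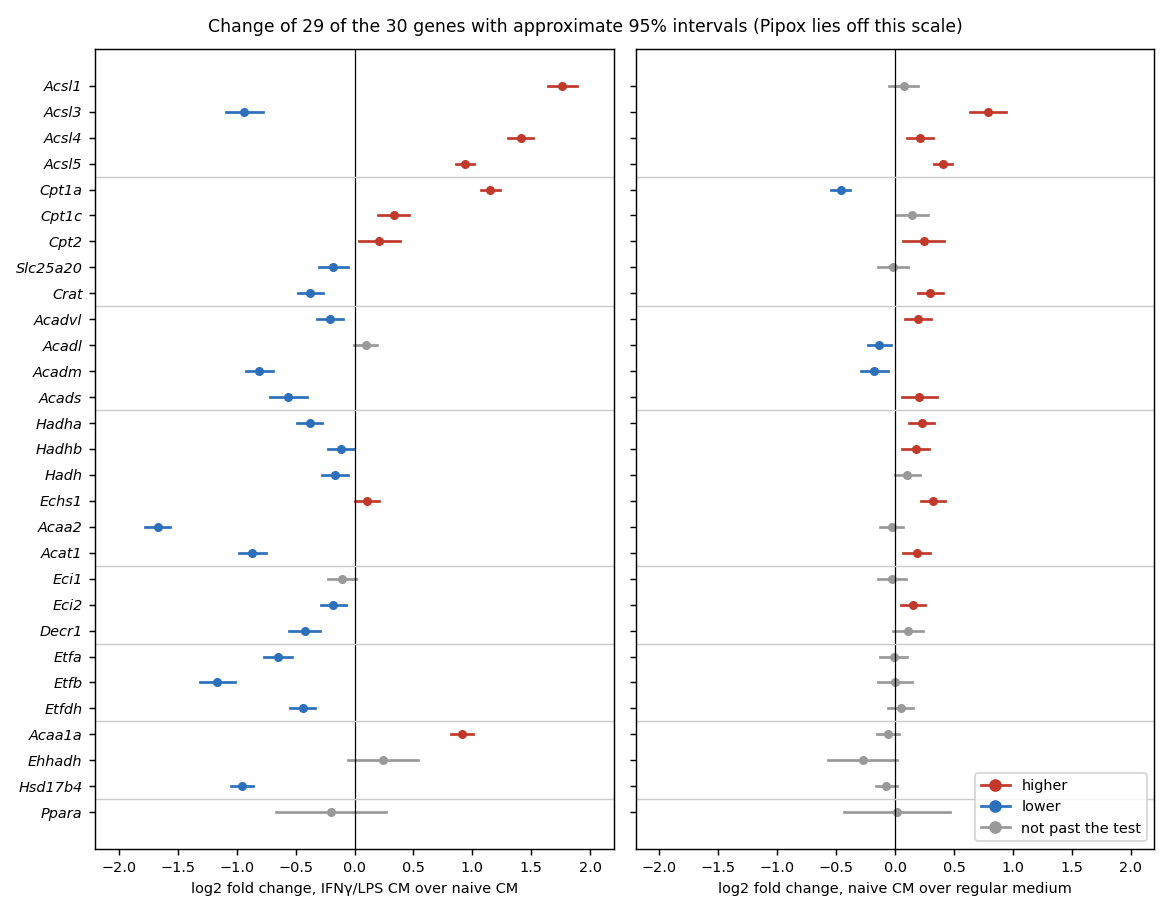
Log2 fold change of 29 of the genes with approximate 95% intervals for IFNγ/LPS CM over naive CM (left) and naive CM over regular medium (right), grouped by role from top to bottom; colour gives the edgeR call. Acsl1, Acsl4, Acsl5 and Cpt1a rise on the left while Acaa2, Etfb and Hsd17b4 fall. The rises of Cpt1c, Cpt2 and Echs1 on the left turn negative when libraries are scaled by their totals, and Cpt2 and Echs1 are then called lower. Pipox, at a log2 fold change of -6.43 on the left, is off the scale.

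Among the synthetases, 3 of 4 rose, while 36.1% of all genes were called higher. Acsl1 (ENSMUSG00000018796, chromosome 8, 46471037 to 46536051 on mm10), the main synthetase of adipose tissue, heart and liver, had 298, 270.4, 274 and 247 CPM in IFNγ/LPS CM. It had 82.0, 77.0, 82.0 and 80.2 CPM in naive CM and 79.8, 77.8, 78.2 and 69.1 CPM in regular medium. All 4 IFNγ/LPS CM libraries lay above every other library, and naive CM and regular medium overlapped. The rise over naive CM was 3.39-fold (log2 fold change 1.76, SE 0.0548, adjusted p = 3.83e-16). Acsl4, which prefers arachidonic acid, had 147, 149.8, 159 and 170.4 CPM in IFNγ/LPS CM, 56.7, 61.2, 59.7 and 58.3 CPM in naive CM and 48.7, 52.9, 51.7 and 50.4 CPM in regular medium. It was 2.66-fold higher in IFNγ/LPS CM than in naive CM (log2 fold change 1.41, SE 0.0481, adjusted p = 1.70e-15), without overlap between any of the 3 groups. Acsl5, found on mitochondria and the endoplasmic reticulum, averaged 300.5 ± 5.72 CPM in IFNγ/LPS CM, 157 ± 2.93 CPM in naive CM and 118 ± 1.01 CPM in regular medium (SD, n = 4 each). It was 1.92-fold higher in IFNγ/LPS CM than in naive CM (log2 fold change 0.94, SE 0.0335, adjusted p = 3.38e-15). Its exons share 404 of 4864 bases with Zdhhc6 on the other strand, which was also higher (log2 fold change 0.29). The part of those shared bases was not tested.

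Acsl3, a synthetase of the endoplasmic reticulum and of lipid droplets, went the other way. It had 18.6, 19.6, 15.6 and 17.9 CPM in IFNγ/LPS CM, 30.6, 35.7, 35.8 and 35.1 CPM in naive CM and 19.0, 19.7, 20.0 and 21.0 CPM in regular medium. Naive CM stood above both other groups without overlap, while IFNγ/LPS CM and regular medium overlapped. Its level in IFNγ/LPS CM was 1.91-fold lower than in naive CM (log2 fold change -0.94, SE 0.0695, adjusted p = 3.51e-10). It shares 244 exonic bases on its own strand with Utp14b, which was also lower (log2 fold change -0.83), and the part of those shared bases was not tested. As a share of the 4 synthetases' summed CPM per kilobase, Acsl3 held 3.41% ± 0.344 in IFNγ/LPS CM, 13.4% ± 0.685 in naive CM and 10.0% ± 0.421 in regular medium (SD, n = 4 each). Acsl1 held 21.5% ± 1.43 in IFNγ/LPS CM, 13.1% ± 0.574 in naive CM and 16.0% ± 0.987 in regular medium. Acsl5 had the largest share of the 4 in each group, at 51.1% ± 0.467 in IFNγ/LPS CM, 54.9% ± 0.309 in naive CM and 53.3% ± 0.760 in regular medium. The summed level of the 4 genes was 119 to 122 CPM per kilobase in IFNγ/LPS CM, 56.7 to 59.8 in naive CM and 45.2 to 45.8 in regular medium.

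**Figure D2:**
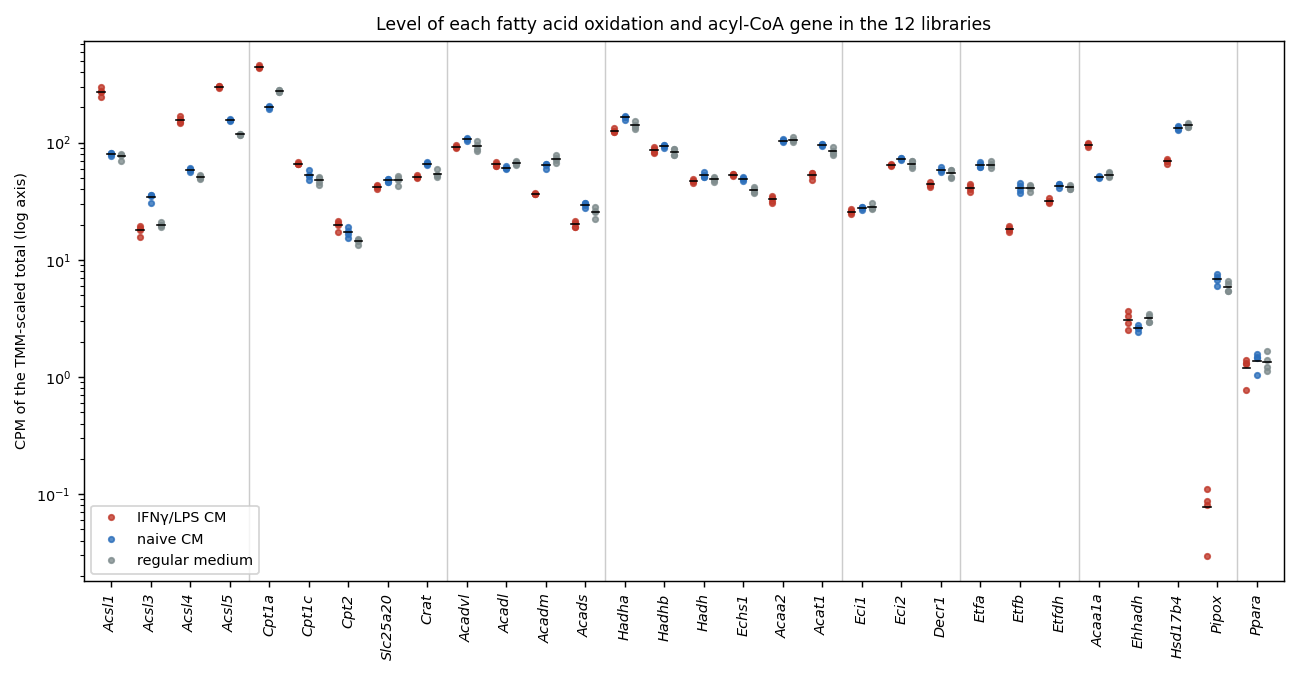
Level of each of the 30 genes in CPM (log axis) in the 12 libraries, grouped by role from left to right, with IFNγ/LPS CM left of naive CM and naive CM left of regular medium; points are libraries and black bars group means. Cpt1a reaches 437 to 458 CPM in IFNγ/LPS CM, above the other groups, and Pipox lies near 0.1 CPM there.

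In the carnitine shuttle, 3 of 5 genes were called higher and 2 lower, against 36.1% and 35.8% of all genes. Cpt1a (ENSMUSG00000024900, chromosome 19, 3322334 to 3385733), the liver-type CPT1 and the controlled step of entry, had 437, 440.3, 458 and 445 CPM in IFNγ/LPS CM, 207, 202, 192 and 200.5 CPM in naive CM and 282, 279.9, 272 and 269 CPM in regular medium. The groups did not overlap, with IFNγ/LPS CM highest and naive CM lowest. The rise over naive CM was 2.22-fold (log2 fold change 1.15, SE 0.0364, adjusted p = 4.94e-16). Cpt1c, an isoform of the endoplasmic reticulum known mainly from neurons, had 65.4, 68.2, 66.2 and 65.4 CPM in IFNγ/LPS CM, 51.5, 47.8, 58.7 and 52.8 CPM in naive CM and 45.9, 43.8, 50.0 and 51.0 CPM in regular medium. Its 4 IFNγ/LPS CM libraries stood above all others (1.26-fold over naive CM, log2 fold change 0.33, SE 0.0584, adjusted p = 4.30e-05), but with library totals the log2 fold change was -0.053. Cpt2, which remakes acyl-CoA on the inner membrane, averaged 19.8 ± 1.75 CPM in IFNγ/LPS CM and 17.1 ± 1.59 CPM in naive CM (SD, n = 4 each). This call (log2 fold change 0.21, SE 0.0763, adjusted p = 0.0190) came from overlapping groups. With library totals Cpt2 was called lower (log2 fold change -0.18, adjusted p = 0.0425). The call as higher was lost without naive CM replicate 1 or IFNγ/LPS CM replicates 1 or 2 (adjusted p = 0.0536 to 0.0835).

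The remaining shuttle genes were lower. Slc25a20, the carnitine-acylcarnitine carrier of the inner membrane, averaged 42.1 ± 1.34 CPM in IFNγ/LPS CM and 47.6 ± 1.86 CPM in naive CM (log2 fold change -0.18, SE 0.0558, adjusted p = 0.00770). Crat, the acetyl transferase that buffers short acyl groups, had 53.1, 49.6, 50.7 and 51.0 CPM in IFNγ/LPS CM, 65.4, 64.4, 67.4 and 68.2 CPM in naive CM and 59.0, 50.9, 52.8 and 53.1 CPM in regular medium. Naive CM stood above both other groups, and IFNγ/LPS CM was 1.30-fold lower than naive CM (log2 fold change -0.38, SE 0.0472, adjusted p = 7.04e-07). Ratios of CPM were taken within libraries, where scaling has no part, and without correction for gene length. The ratio of Cpt1a to Cpt2 was 22.6 ± 2.27 in IFNγ/LPS CM, 11.8 ± 1.36 in naive CM and 19.0 ± 1.33 in regular medium (SD, n = 4 each). The ratio of Cpt1a to Acaa2, the entry step against the last step, was 13.6 ± 0.516 in IFNγ/LPS CM, 1.92 ± 0.0453 in naive CM and 2.59 ± 0.0712 in regular medium.

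The acyl-CoA dehydrogenases, which open each round of oxidation, are split by chain length. Of the 4, 3 were lower, against 35.8% of all genes. Acadm, for medium chains, averaged 36.5 ± 0.302 CPM in IFNγ/LPS CM and 63.9 ± 3.22 CPM in naive CM (SD, n = 4 each), 1.75-fold lower (log2 fold change -0.81, SE 0.0512, adjusted p = 2.99e-11). Acads, for short chains, had 19.2, 20.5, 19.1 and 21.6 CPM in IFNγ/LPS CM, 27.8, 30.7, 29.3 and 30.5 CPM in naive CM and 25.8, 22.5, 26.0 and 28.5 CPM in regular medium. All 4 IFNγ/LPS CM libraries were below every other library, 1.48-fold below naive CM (log2 fold change -0.56, SE 0.0680, adjusted p = 4.40e-07). Acadvl, for very long chains, had 96.0, 91.3, 92.2 and 89.2 CPM in IFNγ/LPS CM, 106, 110.2, 102.5 and 107 CPM in naive CM and 102.5, 94.96, 89.1 and 85.3 CPM in regular medium. It was lower in IFNγ/LPS CM than in naive CM without overlap (log2 fold change -0.21, SE 0.0496, adjusted p = 9.43e-04), while IFNγ/LPS CM and regular medium overlapped. Its exons share 1151 of 2686 bases with Dvl2 on the other strand, and Dvl2 was lower too (log2 fold change -0.26).

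Acadl, for long chains, did not pass, at 65.5 ± 2.52 CPM in IFNγ/LPS CM and 61.3 ± 1.55 CPM in naive CM (log2 fold change 0.094, SE 0.0420, adjusted p = 0.0533). It passed without naive CM replicate 1, IFNγ/LPS CM replicates 1 or 2 or regular medium replicate 3 (adjusted p = 0.0390 to 0.0498) and in a fit of the 8 libraries alone (adjusted p = 0.0434). With library totals it was called lower (log2 fold change -0.29, adjusted p = 3.92e-06). The ratio of Acadm to Acadl within libraries was 0.569, 0.584, 0.554 and 0.527 in IFNγ/LPS CM, 1.05, 1.07, 0.997 and 1.05 in naive CM and 1.19, 1.07, 1.01 and 1.03 in regular medium. The IFNγ/LPS CM libraries were all below the others, so the medium-chain and long-chain enzymes changed unequally whatever the scaling.

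Of the 6 genes of the later mitochondrial steps, 5 were lower and 1 higher, against 35.8% and 36.1% of all genes. Acaa2, the mitochondrial ketoacyl-CoA thiolase, had 30.7, 31.9, 35.0 and 33.4 CPM in IFNγ/LPS CM, 104.3, 105, 101.04 and 107 CPM in naive CM and 112, 105, 106 and 102.2 CPM in regular medium. No IFNγ/LPS CM library came near the others, and it was 3.18-fold lower than in naive CM (log2 fold change -1.67, SE 0.0463, adjusted p = 6.00e-17), the second largest fall among the 30 genes. Acat1, the acetoacetyl-CoA thiolase of ketone body and isoleucine use, had 54.9, 55.2, 52.3 and 47.9 CPM in IFNγ/LPS CM, 95.04, 97.8, 93.4 and 96.9 CPM in naive CM and 91.9, 84.2, 78.9 and 82.0 CPM in regular medium. The 3 groups did not overlap, and IFNγ/LPS CM was 1.82-fold below naive CM (log2 fold change -0.87, SE 0.0515, adjusted p = 1.13e-11). Hadh, the short-chain hydroxyacyl-CoA dehydrogenase, averaged 47.0 ± 1.68 CPM in IFNγ/LPS CM and 52.7 ± 2.44 CPM in naive CM (log2 fold change -0.16, SE 0.0475, adjusted p = 0.00448). Summed over the 6 genes, the level was 77.8 to 79.9 CPM per kilobase in IFNγ/LPS CM, 140.4 to 146 in naive CM and 130.03 to 145 in regular medium.

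Hadha and Hadhb encode the subunits of the trifunctional protein for long chains and are transcribed from the shared stretch described above. Hadha had 133, 126, 122 and 123 CPM in IFNγ/LPS CM, 168, 166, 157 and 166 CPM in naive CM and 153, 142, 137 and 129.6 CPM in regular medium. It was 1.30-fold lower in IFNγ/LPS CM than in naive CM, without overlap (log2 fold change -0.38, SE 0.0472, adjusted p = 5.76e-07). Hadhb had 88.6, 92.7, 81.8 and 83.9 CPM in IFNγ/LPS CM, 94.0, 96.1, 90.7 and 95.2 CPM in naive CM and 87.8, 88.4, 78.9 and 77.9 CPM in regular medium. IFNγ/LPS CM and naive CM overlapped, and the call of a 1.08-fold fall (log2 fold change -0.12, SE 0.0498, adjusted p = 0.0441) was weak. It was lost in DESeq2 (adjusted p = 0.0584) and without naive CM replicates 1, 2 or 4 or IFNγ/LPS CM replicates 1, 3 or 4 (adjusted p = 0.0555 to 0.157). The ratio of Hadha to Hadhb was 1.496, 1.36, 1.496 and 1.47 in IFNγ/LPS CM, 1.79, 1.73, 1.73 and 1.74 in naive CM and 1.74, 1.60, 1.74 and 1.66 in regular medium. Every IFNγ/LPS CM library was below every other one, so the subunit messages did not move in step. Echs1, the short-chain hydratase, was called higher, with 53.0 ± 0.846 CPM in IFNγ/LPS CM and 49.2 ± 1.67 CPM in naive CM (log2 fold change 0.11, SE 0.0452, adjusted p = 0.0414). With library totals Echs1 was called lower (log2 fold change -0.28, adjusted p = 3.46e-05). The call as higher was lost without a filter on low counts (adjusted p = 0.161) and without the 2 shallowest libraries (adjusted p = 0.0722). It was also lost without naive CM replicates 1, 3 or 4 or IFNγ/LPS CM replicates 1, 3 or 4 (adjusted p = 0.0561 to 0.132).

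**Figure D3:**
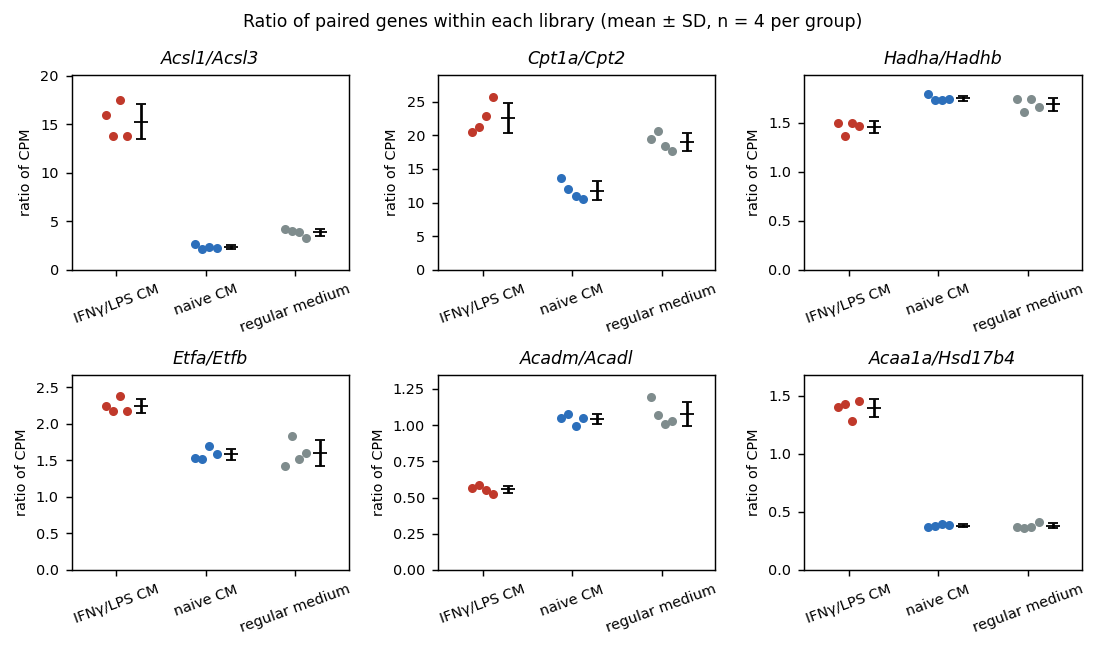
Ratio of CPM between paired genes within each library (points) with group mean ± SD (bars), n = 4 per group, for IFNγ/LPS CM, naive CM and regular medium from left to right; these ratios do not depend on how libraries are scaled. Acsl1/Acsl3, Cpt1a/Cpt2, Etfa/Etfb and Acaa1a/Hsd17b4 are higher in IFNγ/LPS CM than in naive CM, and Hadha/Hadhb and Acadm/Acadl are lower.

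The auxiliary enzymes, which prepare double bonds for the round, were lower in 2 of 3 cases, against 35.8% of all genes. Decr1, the dienoyl-CoA reductase, averaged 44.0 ± 1.71 CPM in IFNγ/LPS CM and 59.0 ± 2.68 CPM in naive CM (log2 fold change -0.42, SE 0.0575, adjusted p = 2.02e-06). Eci2, an enoyl-CoA isomerase, had 64.5, 64.5, 65.9 and 63.2 CPM in IFNγ/LPS CM, 71.0, 73.8, 74.5 and 73.0 CPM in naive CM and 69.7, 69.3, 63.6 and 60.2 CPM in regular medium. It was lower in IFNγ/LPS CM than in naive CM without overlap (log2 fold change -0.18, SE 0.0461, adjusted p = 0.00186), while regular medium overlapped with IFNγ/LPS CM. Eci1, the other isomerase, did not pass at 25.8 ± 1.13 CPM in IFNγ/LPS CM and 27.8 ± 0.885 CPM in naive CM (log2 fold change -0.11, SE 0.0529, adjusted p = 0.0715). It passed without naive CM replicate 3 or IFNγ/LPS CM replicate 3 (adjusted p = 0.0455 to 0.0474), in a fit of the 8 libraries alone (adjusted p = 0.0392), without the 2 shallowest libraries (adjusted p = 0.0464) and with library totals (log2 fold change -0.50).

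All 3 electron transfer genes fell, and unequally, while 35.8% of all genes were called lower. Etfb, the β subunit of the electron transfer flavoprotein, averaged 18.3 ± 0.908 CPM in IFNγ/LPS CM and 40.9 ± 3.55 CPM in naive CM (SD, n = 4 each). It was 2.24-fold lower (log2 fold change -1.16, SE 0.0654, adjusted p = 4.76e-12). Etfa, the α subunit, averaged 41.1 ± 2.78 CPM in IFNγ/LPS CM and 64.5 ± 2.75 CPM in naive CM, 1.57-fold lower (log2 fold change -0.65, SE 0.0528, adjusted p = 1.37e-09). Etfdh, which hands the electrons to ubiquinone, averaged 31.7 ± 1.31 CPM in IFNγ/LPS CM and 43.0 ± 1.66 CPM in naive CM, 1.36-fold lower (log2 fold change -0.44, SE 0.0478, adjusted p = 9.31e-08). None of the 3 overlapped between these groups, while 34.6% of all genes were lower without overlap. The ratio of Etfa to Etfb was 2.25, 2.18, 2.38 and 2.18 in IFNγ/LPS CM, 1.54, 1.52, 1.69 and 1.59 in naive CM and 1.42, 1.84, 1.52 and 1.60 in regular medium. It was higher in each IFNγ/LPS CM library than in any other library. Etfb shares 617 of its 1164 exonic bases with Gm45233 and 61 with Mir7051, both on its own strand. Gm45233 was at 0.00693 CPM in IFNγ/LPS CM and 0.0411 CPM in naive CM. Etfdh shares 278 exonic bases with 4930579G24Rik on the other strand, which was lower as well (log2 fold change -2.51). The part of these shared bases was not tested.

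The peroxisomal enzymes parted. Acaa1a, the peroxisomal thiolase, averaged 96.3 ± 3.19 CPM in IFNγ/LPS CM and 51.2 ± 0.722 CPM in naive CM (SD, n = 4 each), 1.88-fold higher (log2 fold change 0.91, SE 0.0419, adjusted p = 1.99e-13). Its exons overlap Myd88 on the other strand by 290 of 4414 bases, and Myd88 was at 135 ± 2.95 CPM in IFNγ/LPS CM and 21.5 ± 1.54 CPM in naive CM. The strand setting of the counting is not given in the sources used here, so the part of Myd88 reads in the rise of Acaa1a was not tested. The near-identical copy Acaa1b was at 0.103 CPM in IFNγ/LPS CM and 0.445 CPM in naive CM. Hsd17b4, the bifunctional enzyme for very long and branched chains, averaged 69.2 ± 2.39 CPM in IFNγ/LPS CM and 134 ± 4.73 CPM in naive CM, 1.94-fold lower (log2 fold change -0.95, SE 0.0412, adjusted p = 7.57e-14). The ratio of Acaa1a to Hsd17b4 was 1.39 ± 0.0788 in IFNγ/LPS CM, 0.383 ± 0.0136 in naive CM and 0.380 ± 0.0220 in regular medium. Ehhadh, the other bifunctional enzyme, was low at 3.09 ± 0.491 CPM in IFNγ/LPS CM and 2.61 ± 0.1496 CPM in naive CM and did not pass (log2 fold change 0.24, SE 0.130, adjusted p = 0.106). It passed without IFNγ/LPS CM replicate 4 (adjusted p = 0.0323).

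Pipox (ENSMUSG00000017453, chromosome 11, 77880615 to 77894096), the peroxisomal oxidase of pipecolic acid and sarcosine, showed the largest change of the 30 genes. It had 0.0807, 0.0868, 0.111 and 0.0295 CPM in IFNγ/LPS CM, 7.61, 6.78, 6.03 and 7.17 CPM in naive CM and 6.27, 6.53, 5.37 and 5.41 CPM in regular medium. The 4 IFNγ/LPS CM libraries held 11 counts together, the naive CM libraries 1396 and the regular medium libraries 1233. The ratio of naive CM over IFNγ/LPS CM, corrected for library size, was 89.9 with an exact 95% interval of 50.1 to 180, which covers counting error only (edgeR adjusted p = 5.10e-16). The ratio of regular medium over IFNγ/LPS CM was 77.6 (43.2 to 156).

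Ppara, the receptor that drives many of these genes in liver, was low, with 169 counts in the 4 IFNγ/LPS CM libraries together, 272 in naive CM and 284 in regular medium. It had 0.780, 1.30, 1.39 and 1.33 CPM in IFNγ/LPS CM, 1.56, 1.46, 1.48 and 1.03 CPM in naive CM and 1.39, 1.65, 1.22 and 1.12 CPM in regular medium. The 3 groups overlapped and no change was detectable against naive CM (log2 fold change -0.20, SE 0.207, adjusted p = 0.400; approximate 95% interval -0.67 to 0.27). With library totals it was called lower (log2 fold change -0.58, adjusted p = 0.0145), where all genes had a median of -0.38.

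The second comparison asked what medium of naive macrophages changed relative to regular medium. Changes were small, and none of the 30 genes reached 2-fold, against 2.87% of all genes upward and 0.948% downward. Here 12 genes were higher in naive CM, 3 lower and 15 not past the test, that is 40% higher and 10% lower, while 34.7% of all genes passed, 18.3% higher and 16.4% lower. The median log2 fold change was 0.11 for the 30 genes and -0.02 over all genes. Groups did not overlap for 11 genes upward and 4 downward, against 17.2% and 15.5% of all genes. Naive CM is the numerator here and the denominator above, so the comparisons share 4 libraries and their values are set side by side without a test of likeness.

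In naive CM against regular medium the largest rise was that of Acsl3 (1.72-fold; log2 fold change 0.79, SE 0.0683, adjusted p = 5.04e-08), whose per-library values are given above. Acsl5 (log2 fold change 0.41, SE 0.0335, adjusted p = 2.38e-08) and Acsl4 (log2 fold change 0.21, SE 0.0482, adjusted p = 0.00203) rose as well. Acsl1 did not pass (log2 fold change 0.074, SE 0.0541, adjusted p = 0.315). Cpt1a was the largest fall (1.38-fold lower; log2 fold change -0.46, SE 0.0361, adjusted p = 1.32e-08), so Cpt1a and Acsl3 were called in opposite directions in the 2 comparisons. The same held for 7 other genes, all higher in naive CM here. Crat had a log2 fold change of 0.30 (SE 0.0468, adjusted p = 6.28e-05) and Hadha one of 0.23 (SE 0.0469, adjusted p = 9.42e-04). The values were 0.20 (SE 0.0493, adjusted p = 0.00458) for Acadvl and 0.21 (SE 0.0665, adjusted p = 0.0225) for Acads. They were 0.18 (SE 0.0502, adjusted p = 0.00773) for Acat1 and 0.17 (SE 0.0496, adjusted p = 0.0104) for Hadhb, the partner of Hadha. For Eci2 the value was 0.15 (SE 0.0457, adjusted p = 0.0141). Echs1 (log2 fold change 0.32, SE 0.0452, adjusted p = 2.06e-05) and Cpt2 (log2 fold change 0.24, SE 0.0764, adjusted p = 0.0197) were higher. Acadm (log2 fold change -0.18, SE 0.0495, adjusted p = 0.00946) and Acadl (log2 fold change -0.13, SE 0.0417, adjusted p = 0.0191) were lower. Some of these small calls were lost in alternatives. Acads was lost without naive CM replicates 2 or 4 or regular medium replicate 2 (adjusted p = 0.0665 to 0.0843), and Eci2 without regular medium replicate 4 (adjusted p = 0.0503). Cpt2 was lost without naive CM replicate 4 or regular medium replicate 2 (adjusted p = 0.0642 to 0.0912), and Acadl without replicate 3 of either group (adjusted p = 0.0558 to 0.0600). The Acadl call was also lost without a filter on low counts (adjusted p = 0.0555) and in a fit of the 8 libraries alone (adjusted p = 0.0540). All 4 calls were lost without the 2 shallowest libraries (adjusted p = 0.0579 for Acads, 0.0865 for Eci2, 0.0613 for Cpt2 and 0.132 for Acadl). Cpt1c did not pass (log2 fold change 0.14, SE 0.0585, adjusted p = 0.0654). It did without naive CM replicate 2 or regular medium replicate 4 (adjusted p = 0.0224 to 0.0244), without a filter on low counts (adjusted p = 0.0249) and with the replicate number as a block (adjusted p = 0.0409). No electron transfer or peroxisomal gene passed, and the log2 fold changes of Etfa, Etfb and Etfdh lay between -0.01 and 0.05. Acaa2, at -0.028 (SE 0.0435), did not pass either.

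Against regular medium, IFNγ/LPS CM gave 8 genes higher, 13 lower and 9 not past the test, or 26.7% and 43.3%, while 71.8% of all genes passed, 35.4% higher and 36.4% lower. With library totals the split was 5 higher and 22 lower, against 20.3% and 59.5% of all genes. Under that scaling Cpt1c, Cpt2 and Echs1 lost their call as higher, and the 9 genes that did not pass with TMM (Acsl3, Crat, Acadvl, Acadl, Hadh, Hadhb, Eci2, Ehhadh and Ppara) were all called lower. The synthetases Acsl1 (3.57-fold), Acsl4 (3.08-fold) and Acsl5 (2.55-fold) were the 3 genes higher by at least 2-fold (adjusted p = 2.02e-16 for Acsl1, 2.03e-16 for Acsl4 and 1.20e-17 for Acsl5), against 13.7% of all genes. Cpt1a was 1.61-fold higher (log2 fold change 0.69, SE 0.0360, adjusted p = 1.47e-12), less than against naive CM, where its level was lower than in regular medium. Acsl3 did not pass (log2 fold change -0.15, SE 0.0702, adjusted p = 0.0639), though it did without IFNγ/LPS CM replicate 2 or regular medium replicate 1 (adjusted p = 0.0282 to 0.0474), without a filter on low counts (adjusted p = 0.0476) and with library totals (log2 fold change -0.54, adjusted p = 9.94e-07). Acaa2 (3.25-fold), Etfb (2.24-fold), Hsd17b4 (2.04-fold) and Pipox were the 4 genes lower by at least 2-fold, against 14.4% of all genes. Hadhb (log2 fold change 0.058, SE 0.0499, adjusted p = 0.309) did not pass, while with library totals it was called lower at -0.33, and Hadha was lower (log2 fold change -0.16, SE 0.0472, adjusted p = 0.00643). Eci1 was called lower (log2 fold change -0.13, SE 0.0528, adjusted p = 0.0296) and lost that call without IFNγ/LPS CM replicates 1 or 2 or regular medium replicate 1 (adjusted p = 0.0678 to 0.110), and without a filter on low counts (adjusted p = 0.0543). Crat did not pass (log2 fold change -0.078, SE 0.0474, adjusted p = 0.147). It passed without regular medium replicate 2 (adjusted p = 0.0490) and with library totals (log2 fold change -0.46, adjusted p = 4.24e-08).

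Genes of the neighbouring steps, in lists that do not contain the 30 genes, were counted for IFNγ/LPS CM against naive CM, where 36.1% of all genes were higher and 35.8% lower (20.3% and 58.1% with library totals). Of 10 tested genes of fatty acid uptake and binding, 2 were higher and 5 lower (median log2 fold change -0.09). Fabp5, a fatty acid carrier of the cytosol, was at 5.80 ± 0.584 CPM in IFNγ/LPS CM and 89.0 ± 5.95 CPM in naive CM (log2 fold change -3.94, SE 0.0696, adjusted p = 4.88e-20). Cd36, the membrane fatty acid receptor, had 62 counts in IFNγ/LPS CM and 1146 in naive CM (13.1-fold lower, exact 95% interval 10.1 to 17.2). The transporters Slc27a3 (log2 fold change 1.99, SE 0.154, adjusted p = 6.39e-10) and Slc27a4 (log2 fold change 0.60, SE 0.0455, adjusted p = 4.72e-10) rose.

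Of 33 other oxidation genes tested, 10 were higher and 15 lower (median -0.04; 3 and 22 with library totals). The peroxisomal α-oxidation enzyme Phyh, at 82.0 ± 4.13 CPM in IFNγ/LPS CM and 25.9 ± 0.481 CPM in naive CM, rose (log2 fold change 1.66, SE 0.0465, adjusted p = 6.89e-17). The sterol carrier and thiolase gene Scp2 rose as well (log2 fold change 1.34, SE 0.0489, adjusted p = 5.21e-15). Pccb, a subunit of propionyl-CoA carboxylase (log2 fold change -1.48, SE 0.0573, adjusted p = 1.35e-14), and the thioesterase Acot1 (log2 fold change -1.26, SE 0.0831, adjusted p = 5.71e-11) fell. Of 15 branched-chain and ketone body genes, 4 were higher and 8 lower (median -0.23; 1 and 13 with library totals). Oxct1, which uses ketone bodies, averaged 156 ± 4.69 CPM in IFNγ/LPS CM and 406 ± 16.7 CPM in naive CM (log2 fold change -1.38, SE 0.0545, adjusted p = 1.67e-14). Bckdhb (log2 fold change 0.91, SE 0.1002, adjusted p = 1.25e-07) and Auh (log2 fold change 0.37, SE 0.0564, adjusted p = 7.93e-06) were called higher, though Auh stood at -0.016 with library totals.

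Of 16 tested transcriptional regulators, 5 were higher and 6 lower (median -0.01; 2 and 13 with library totals). Ppard, the receptor PPARδ, averaged 17.0 ± 1.37 CPM in IFNγ/LPS CM and 7.13 ± 0.774 CPM in naive CM (log2 fold change 1.26, SE 0.127, adjusted p = 1.66e-07). Esrra, the receptor ERRα, was higher too (log2 fold change 0.78, SE 0.126, adjusted p = 7.18e-05). Pparg, the receptor PPARγ, at 3.86 ± 0.507 CPM in IFNγ/LPS CM and 7.24 ± 0.242 CPM in naive CM, fell (log2 fold change -0.90, SE 0.110, adjusted p = 4.79e-07), as did the corepressor Nrip1 (log2 fold change -1.24, SE 0.0458, adjusted p = 6.39e-15). Of 6 tested PPAR target genes outside oxidation, 5 were higher and 0 lower (median 1.64; 5 and 1 with library totals). Angptl4, an inhibitor of lipoprotein lipase, averaged 84.0 ± 1.53 CPM in IFNγ/LPS CM and 5.09 ± 0.239 CPM in naive CM (log2 fold change 4.04, SE 0.0686, adjusted p = 2.69e-20). Hilpda, an inhibitor of triglyceride lipase, averaged 92.3 ± 4.63 CPM in IFNγ/LPS CM and 6.09 ± 0.267 CPM in naive CM (log2 fold change 3.92, SE 0.0593, adjusted p = 4.86e-21). Both are known to respond to hypoxia and other signals as well.

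Among 16 synthesis genes, 3 were higher and 9 lower (median -0.40; 3 and 12 with library totals), while in naive CM against regular medium 11 were higher (9 to 12 on leaving out 1 library) and 0 lower (median 0.34), against 18.3% and 16.4% of all genes. Scd1, the stearoyl-CoA desaturase, averaged 120.1 ± 6.37 CPM in IFNγ/LPS CM, 376 ± 23.1 CPM in naive CM and 196 ± 22.3 CPM in regular medium. The elongase Elovl6 averaged 6.64 ± 0.621 CPM in IFNγ/LPS CM, 27.4 ± 3.13 CPM in naive CM and 14.6 ± 1.60 CPM in regular medium. Acss2 (log2 fold change 0.63, SE 0.0580, adjusted p = 9.28e-09) and Acacb, which makes the malonyl-CoA that blocks CPT1 (log2 fold change 0.58, SE 0.0808, adjusted p = 2.84e-06), rose. Acacb averaged 11.4 ± 0.571 CPM in IFNγ/LPS CM and 7.65 ± 0.255 CPM in naive CM. Acaca, the other gene of that step, went the other way. It was at 76.1 to 80.2 CPM in IFNγ/LPS CM and 119 to 129.9 CPM in naive CM. Of 12 tested genes of lipid droplets and triglyceride turnover, 4 were higher and 4 lower (median 0.08; 3 and 8 with library totals). Dgat2, of the last step of triglyceride synthesis, had 36.1 ± 1.47 CPM in IFNγ/LPS CM and 1.21 ± 0.109 CPM in naive CM, and rose (log2 fold change 4.90, SE 0.0855, adjusted p = 4.11e-20). Gpat3, of the first step, rose too (log2 fold change 1.40, SE 0.0782, adjusted p = 4.15e-12). The droplet protein Plin4 (log2 fold change -2.55, SE 0.0567, adjusted p = 1.81e-18) and the monoglyceride lipase Mgll (log2 fold change -1.66, SE 0.0453, adjusted p = 4.84e-17) fell.

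**Figure D4:**
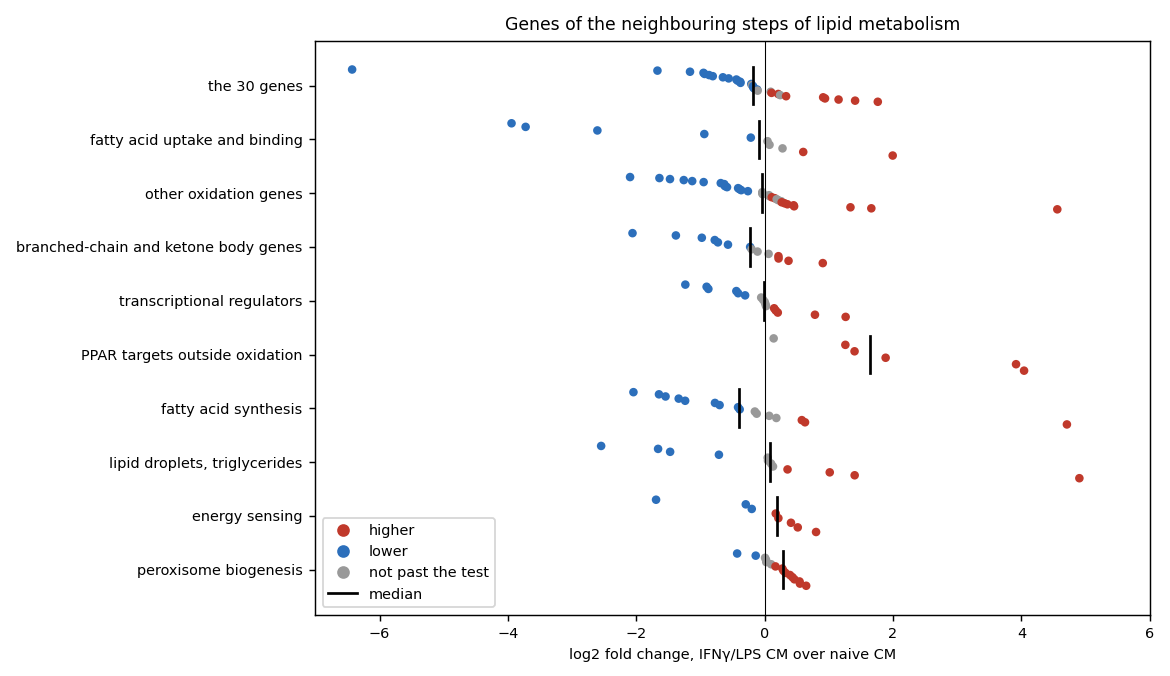
Log2 fold change of each tested gene, IFNγ/LPS CM over naive CM, in the 30 oxidation genes and in 9 lists of neighbouring steps; each point is a gene, colour gives the edgeR call and black bars are medians. The median of the PPAR targets lies at 1.64 and that of the synthesis genes at -0.40; 1 lower gene lies off the scale, and the counts of small changes shift downward when libraries are scaled by their totals.

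Of 8 energy sensing genes, subunits of the AMP-activated kinase or kinases upstream of it, 5 were higher and 3 lower (median 0.19; 2 and 5 with library totals). The β subunits Prkab2 (log2 fold change 0.80, SE 0.0543, adjusted p = 8.89e-11) and Prkab1 (log2 fold change 0.52, SE 0.0576, adjusted p = 1.42e-07) rose. The γ subunit Prkag2 (log2 fold change -1.69, SE 0.0488, adjusted p = 1.14e-16) and a catalytic subunit, Prkaa2 (log2 fold change -0.29, SE 0.0946, adjusted p = 0.00933), fell. Prkaa2 averaged 5.78 ± 0.461 CPM in IFNγ/LPS CM and 7.07 ± 0.278 CPM in naive CM. The other catalytic subunit, Prkaa1, stood higher in IFNγ/LPS CM, at 92.7 to 99.3 CPM against 70.6 to 74.5 CPM in naive CM. Of 16 peroxisome biogenesis genes, 10 were higher and 2 lower (median 0.28), but 3 were higher and 7 lower with library totals. Pex5, the import receptor (log2 fold change 0.65, SE 0.0511, adjusted p = 9.16e-10), and Cat, catalase (log2 fold change 0.55, SE 0.0380, adjusted p = 1.18e-10), rose. Pex2 was called lower (log2 fold change -0.14, SE 0.0548, adjusted p = 0.0293) and lost that call without replicates 3 or 4 of naive CM or of IFNγ/LPS CM (adjusted p = 0.0521 to 0.122), and without the 2 shallowest libraries (adjusted p = 0.0511).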

How the data were processed

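Polyadenylated RNA of 12 libraries was prepared with a stranded Illumina kit and read in pairs of 150 bp, per the labels' protocols. Per the submitters' processing notes, Salmon 1.10.1 was run against mm10. The authors deposited expected counts per gene, as whole numbers taken here as rounded estimates. The annotation, the summing to genes and the strand setting are stated in none of the sources used here. Of 55822 identifiers, 51344 matched a symbol in GENCODE M21.

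In R 4.3.3, edgeR 4.0.16 (filterByExpr, TMM, robust quasi-likelihood F-test, two-sided, 1 model of all 12 libraries, 9 residual degrees of freedom) tested 16140 genes at a Benjamini-Hochberg adjusted p of 0.05, after a check on simulated data. Mean TMM factors were 0.837 in IFNγ/LPS CM, 1.09 in naive CM and 1.09 in regular medium. The SE is approximate. Ratios of counts were used where a group held at most 100 counts. Same-numbered libraries correlated at -0.0637 to 0.0679 over 12 pairs in their deviations from group means, so they were not paired.

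All 30 genes are named, with per-library values for the 2 largest rises and falls, for Ppara, Cpt1a and Cpt1c and for genes called oppositely in the conditioned media comparisons. From each other list, up to 2 called genes per direction with at least 5 CPM are named. Acaca and Prkaa1 are given besides, as partners of genes named by this rule. A gene that this rule picks is not reported here. The genes and lists were chosen with earlier results of these data known. The gamma-activated and interferon-stimulated words were added after the values were seen. Promoter windows are from RefSeq (GRCm38.p6). A planned comparison of protein sequences was not made. The alternatives were DESeq2 1.42.0 size factors and Wald test, library totals, leaving genes unfiltered or asking for 1 CPM in 4 libraries, and limma-voom (limma 3.58.1). Others were the 2 groups alone, the replicate number as a block, leaving out each library and, chosen after seeing the data, leaving out the 2 shallowest.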

Additional observations from a re-analysis of the deposited data

Results flagged for a closer look

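A search over 89 sets of 4 libraries, 1 set per gene and group, looked for a library far from the other 3 by Dixon's ratio of the gap to the range; chance marks about 1 in 20 such sets. It found 2. Acsl3 stood at 30.6 CPM in naive CM replicate 1, against 35.1 to 35.8 CPM in the other naive CM libraries (ratio 0.867). Even so this library lay above every library of IFNγ/LPS CM and of regular medium. Ppara stood at 0.780 CPM in IFNγ/LPS CM replicate 1, against 1.30 to 1.39 CPM in the other IFNγ/LPS CM libraries (ratio 0.862).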

How the results depend on the processing

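With library totals in place of TMM, the genes higher in IFNγ/LPS CM than in naive CM numbered 5 of 30, and against regular medium 5 were higher and 22 lower. That setting turned Cpt1c (-0.053), Cpt2 (-0.18), Acadl (-0.29), Echs1 (-0.28) and Auh (-0.016) below 0 against naive CM, and Hadhb (-0.33) below 0 against regular medium. Of these, Cpt2, Acadl and Echs1 were then called lower against naive CM, and Hadhb against regular medium. Scaling by library totals put the all-gene median at -0.38 in IFNγ/LPS CM against naive CM, where that median was 0.004 with TMM. It also moved list counts in the first comparison: other oxidation genes to 3 higher, branched-chain and ketone body genes to 1 higher and 13 lower, and regulators to 2 higher and 13 lower. PPAR targets moved to 1 lower (also 1 without a filter), lipid droplet genes to 8 lower, energy sensing genes to 2 higher and 5 lower, and peroxisome biogenesis genes to 3 higher and 7 lower. The count of peroxisome biogenesis genes lower was 0 to 2 on leaving out 1 library at a time and 1 without the 2 shallowest libraries. On leaving out each library, IFNγ/LPS CM against naive CM gave 7 to 9 of the 30 genes higher and 17 to 19 lower, naive CM against regular medium 10 to 12 and 2 to 3, and IFNγ/LPS CM against regular medium 8 and 12 to 14. With the replicate number as a block the counts were 8 and 18, 13 and 3, and 8 and 13, and the block changed no other call than that of Cpt1c; the libraries share only a number. The rises of Acsl1, Acsl4, Acsl5, Cpt1a and Acaa1a and the falls of Acsl3, Acadm, Acaa2, Acat1, Etfa, Etfb, Hsd17b4 and Pipox against naive CM kept direction and call in every alternative run. Sign changes of values without a call numbered 36, over 10 results, none above 0.147, and were given no direction. At these depths, precision was limited for Ppara, Ehhadh and Pipox.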
